A study of Homo sapiens with 18 samples.

Results

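The 8 genes of the WNT pathway described here are β-catenin itself (CTNNB1), the TCF/LEF factors LEF1, TCF7, TCF7L1 and TCF7L2, and the ligands WNT3, WNT5A and WNT5B. They were taken by name and followed in human embryonic stem cells treated with Wnt3a. Of these, 5 were listed among the 10975 genes of the RPKM table (CTNNB1, TCF7, TCF7L1, TCF7L2 and WNT3), and 2 (TCF7 and WNT3) among the 497 genes of the table that holds the SP5 mutant clones. LEF1, WNT5A and WNT5B were listed in neither table. The highest RPKM of each listed gene was at least 4, so an unlisted gene has no value here and was not read as absent.

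H1 (WA01) is an established embryonic stem cell line, grown here in Essential 8 medium with no feeder cells named in the labels. A first WT series was taken at 0, 12, 24 and 48 h of 1 nM Wnt3a, the 0 h cells having received buffer alone. A second experiment compared a further WT series (WT Rep. 2) with dZF1 and dZF2 at the same times. dZF1 and dZF2 are each 1 clone of H1 in which CRISPR-Cas9 removed, from both alleles of SP5, the segment encoding the zinc fingers that bind DNA. SP5 is a WNT-responsive transcription factor of the SP/KLF family, whose members recognise GC boxes. Each series had 1 library at each time, 16 in all. Values in the first WT series on its own therefore have no replicate check, and the spread between the 2 WT series and between the 2 clones is given where both experiments list a gene. These are bulk samples, in which fewer cells of a type and less RNA per cell cannot be told apart.

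When a WNT ligand meets its receptors, the destruction complex stops marking β-catenin for degradation, and the protein accumulates and enters the nucleus. There it joins TCF/LEF factors on DNA. In the absence of signal these factors hold targets silent with Groucho/TLE partners. TCF7L1 is known chiefly as a repressor in pluripotent cells, while TCF7 and LEF1 are chiefly activators. In the embryo WNT3 is required for the primitive streak, and WNT5A and WNT5B signal mostly through ROR and planar polarity components without β-catenin.

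The labelled cell type was checked against its markers. All 8 pluripotency markers were listed, and their summed RPKM was 2873.6 at 0 h and 2011.6 at 48 h in the first WT series. At 0 h LIN28A alone gave 1014.1 RPKM of that sum and NANOG gave 3.3. The 4 mesendoderm markers (T, MIXL1, EOMES and GSC) summed to 0.7, 116.5, 459.9 and 253.5 RPKM at 0, 12, 24 and 48 h. The 4 definitive endoderm markers summed to 4 RPKM at 0 h and 257.4 at 48 h. None of 3 neural, 2 of 4 fibroblast and 1 of 4 trophoblast markers were listed. Of the fibroblast markers THY1 had 195.7 RPKM at 0 h and 95.4 at 48 h, and COL1A1 had 4.2 and 2.6. COL3A1 and DCN were not listed, and whether the THY1 RNA came from fibroblasts was not tested. The trophoblast marker TFAP2C had 2 and 4.1 RPKM. The RPKM of a library summed to between 386320 and 393761, and read depth is unknown from these tables. SP5 was listed at 0 RPKM at 0 h and reached 135.7 at 48 h. In the clones SP5 RNA was counted at up to 2.61 times the WT Rep. 2 maximum. The parts of SP5 outside the deletion can still be counted, so SP5 RNA does not check the mutant labels.

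SP5 peaks are shown first as sequence, since these are the sites near the members where SP5 ChIP-Seq gave a peak. Peaks were called with MACS against a control library. The 2 deposited lists, labelled as without and with Wnt3a, name in their headers the same ChIP library of Wnt3a-treated cells, of 18641194 tags, and differ in the control (buffer-treated or Wnt3a-treated). Those headers call the line H9, whereas the labels give H1. Each window below is 201 bases of GRCh37, plus strand, centred on a peak summit, and capitals mark the GC box GGGCGG or its reverse complement. The TCF7L1 window was at chr2:85362224-85362424, the WNT3 window at chr17:44849839-44850039 and the CTNNB1 window at chr3:41317682-41317882.
TCF7L1 peak: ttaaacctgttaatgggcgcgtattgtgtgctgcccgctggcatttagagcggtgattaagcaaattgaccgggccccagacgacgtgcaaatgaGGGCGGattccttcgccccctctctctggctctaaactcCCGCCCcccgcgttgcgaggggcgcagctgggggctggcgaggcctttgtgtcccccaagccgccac
WNT3 peak: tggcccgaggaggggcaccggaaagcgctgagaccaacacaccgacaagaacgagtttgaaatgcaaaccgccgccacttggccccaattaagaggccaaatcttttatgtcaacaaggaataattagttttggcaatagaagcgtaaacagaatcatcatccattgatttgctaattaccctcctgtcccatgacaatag
CTNNB1 peak: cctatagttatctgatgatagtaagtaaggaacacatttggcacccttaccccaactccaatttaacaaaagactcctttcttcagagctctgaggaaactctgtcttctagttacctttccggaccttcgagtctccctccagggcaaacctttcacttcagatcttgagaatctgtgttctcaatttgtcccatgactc

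With the Wnt3a-treated control, 3 of the 8 members had a peak summit within 100 kb of the start of the gene record or inside the gene, against 6.9% of 20176 protein-coding genes. With the buffer-treated control none of the 8 had such a peak, against 6.37% of those genes. Within 10 kb of the start or inside the gene, the counts were 2 of 8 against 2.2% of genes with the Wnt3a-treated control and 0 of 8 against 2.07% with the other. Gene length differs between members and other genes and was not matched. The 3 peaks lay at TCF7L1, WNT3 and CTNNB1, and TCF7, TCF7L2, LEF1, WNT5A and WNT5B had none in either list.

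The TCF7L1 peak (chr2:85361815-85362679) had its summit 1809 bases downstream of the start of the gene, in intron 3 of its canonical transcript of 12 exons. It held 31 tags with a 5.18-fold enrichment over the control. Of the 3 windows it alone held a GC box, in 2 copies. The nearer copy ran from 5 bases before the summit to the summit itself on the plus strand, and the other from 34 to 39 bases after it on the minus strand.

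The WNT3 peak (chr17:44849351-44850376) lay 60581 bases downstream of the start of the gene record, in intron 2 of the canonical transcript of 5 exons. It held 38 tags with a 5.53-fold enrichment. The canonical start of WNT3 lay 46119 bases from this summit. The start of a shorter annotated transcript lay 286 bases from it, so the peak was distant from the main promoter but not from every annotated start.

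The CTNNB1 peak (chr3:41317354-41317976) lay 81550 bases downstream of the start of the gene record and beyond its end, within the neighbouring gene ULK4. It held 16 tags, the fewest of the 3, with a 7.24-fold enrichment. No window of the 3 met an annotated exon of its own member. Exons of other genes, ULK4 among them, were not searched.

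These peaks ranked below the middle of their list. MACS gave them false discovery rates of 45.66% (TCF7L1), 41.51% (WNT3) and 45.82% (CTNNB1), where the median of the 540 peaks in that list was 39.7%. Their scores, 10 times the negative log10 of the p-value given by MACS, were 55.36 for TCF7L1, 56.48 for WNT3 and 55.31 for CTNNB1, below the list median of 58.7. At a false discovery rate of at most 5%, 53 peaks of that list remained and no member had one. There was 1 ChIP library, so the peaks had no replicate.

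**Figure D1:**
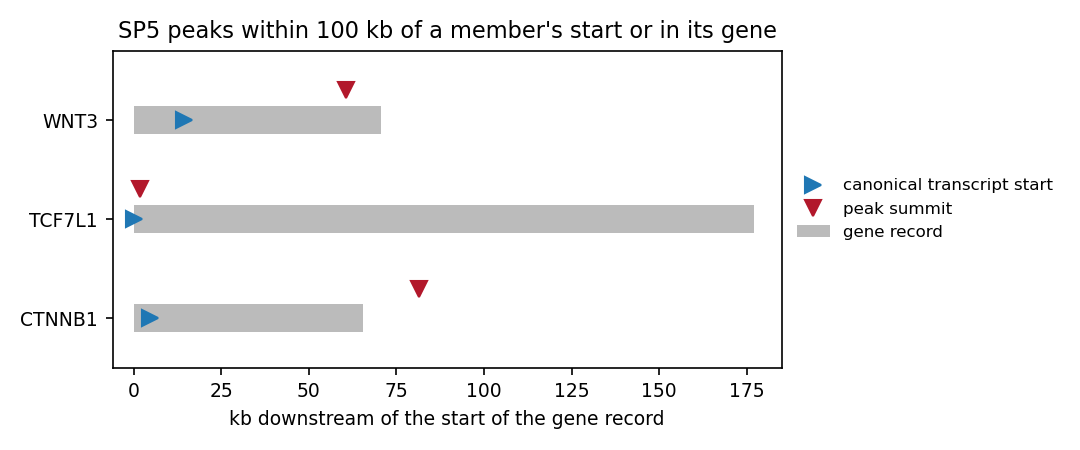
Position of the 3 SP5 peak summits (red triangles) in kb downstream of the start of each gene record, with the gene record (grey bar) and the start of its canonical transcript (blue arrowhead). The TCF7L1 summit sits 1.8 kb from the start, the WNT3 summit at 60.6 kb inside the gene and the CTNNB1 summit at 81.5 kb, past the end of the gene.

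The GC box GGGCGG, its variant GGGAGG and the TCF/LEF core CTTTGNT were searched on both strands within 100 bases of each summit. GGGCGG was found in 42.1% of 539 peak windows of that list and in 39.8% of 35116 RefSeq promoters at the same length. GGGAGG was found in 50.8% of the peaks and 39.8% of the promoters, and CTTTGNT in 15% and 10.2%. Neither GGGAGG nor CTTTGNT was in any of the 3 member windows. Widening the search to 250 bases either side added 1 CTTTGNT match, at TCF7L1.

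The WNT3 promoter is shown because WNT3 had the largest difference among the members below. No peak was called at it. The 250 bases before its RefSeq start (chr17:44896059-44896308 of GRCh37, minus strand, written 5′ to 3′, matched once in that build) carried GGGCGG and GGGAGG in 2 copies each. The sequence has a GC content of 68.8%. Capitals mark both motifs, and the upstream pair overlaps, running from −169 to −160 relative to the start.
WNT3 promoter: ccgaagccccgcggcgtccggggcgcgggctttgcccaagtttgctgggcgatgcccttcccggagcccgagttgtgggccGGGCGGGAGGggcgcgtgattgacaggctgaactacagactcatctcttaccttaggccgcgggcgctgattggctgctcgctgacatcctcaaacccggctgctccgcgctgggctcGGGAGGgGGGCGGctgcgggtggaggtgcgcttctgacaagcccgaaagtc

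In RefSeq promoters of 300 bases, GGGCGG was present in 45% of 35116. A match of this kind is common and is given as a description.

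In the first WT series the 5 listed members differed in both level and course. WNT3 was higher after Wnt3a at every time, TCF7 was over 2-fold higher at 48 h, CTNNB1 was higher by less than 2-fold, and TCF7L1 and TCF7L2 were lower at every time than at 0 h by less than 2-fold. RPKM is the number of reads divided by transcript length and library size, so levels can be set side by side between genes. A change was called at 2-fold or more on the log2 scale after adding 1 RPKM to each value.

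WNT3, the ligand of the primitive streak, had 1.4, 8.6, 26.8 and 31.4 RPKM at 0, 12, 24 and 48 h. The 0 h library was the lowest and each later library was higher than the one before it. The differences from 0 h were 2, 3.53 and 3.75 on the log2 (RPKM + 1) scale. As a ratio of the RPKM values WNT3 was 6.14-fold, 19.1-fold and 22.4-fold its 0 h level at 12, 24 and 48 h. Rounding to 1 decimal alone places the 48 h ratio between 21.6 and 23.3. WNT3 passed from rank 10805 of 10975 genes at 0 h to rank 2789 at 48 h. Only 0.273% of genes differed as much in either direction at 48 h. Most of the increase came before 24 h, 7.2 RPKM in the step to 12 h and 18.2 in the step to 24 h, with 4.6 in the last step.

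CTNNB1, which encodes β-catenin, was by far the most abundant member, with 184.9, 195.4, 200.9 and 262.5 RPKM at 0, 12, 24 and 48 h. Its log2 differences from 0 h were 0.08, 0.12 and 0.50. The 48 h library stood 1.42-fold above 0 h, and 24.4% of all genes differed at least as much at that time. WNT signaling acts on β-catenin chiefly through the stability of the protein, which RNA-Seq does not measure.

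TCF7L1 had 27.4, 18.2, 20.2 and 22 RPKM at 0, 12, 24 and 48 h. The lowest library was that at 12 h, 0.56 below 0 h on the log2 scale, and 8.38% of genes differed as much at that time. At 24 and 48 h the log2 differences were −0.42 and −0.30.

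TCF7L2, a factor with both activating and repressing roles, had 26.5, 21.3, 20.3 and 22.3 RPKM at 0, 12, 24 and 48 h. Its log2 differences from 0 h were −0.30, −0.37 and −0.24. With 1 library at a time, none of these differences between 0 h and later times could be set against replicate spread.

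TCF7 had 5.7, 9.5, 7.3 and 16.5 RPKM at 0, 12, 24 and 48 h. Its log2 differences from 0 h were 0.65, 0.31 and 1.39, so the 24 h library was below that at 12 h. The 48 h level was 2.89 times that at 0 h, and 4.06% of genes differed as much.

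Counted together, 1 of the 5 listed members was at least 2-fold higher at 12 h, where 1.22% of all genes were. At 24 h the count was again 1, against 2.62% of genes, and at 48 h it was 2, against 4.86%. No listed member was at least 2-fold lower at any time, where 0.72%, 1.35% and 2.95% of genes were. The median log2 difference over the 5 members was 0.08, 0.12 and 0.50 at the 3 times, beside medians of all genes of −0.01, −0.01 and −0.00.

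**Figure D2:**
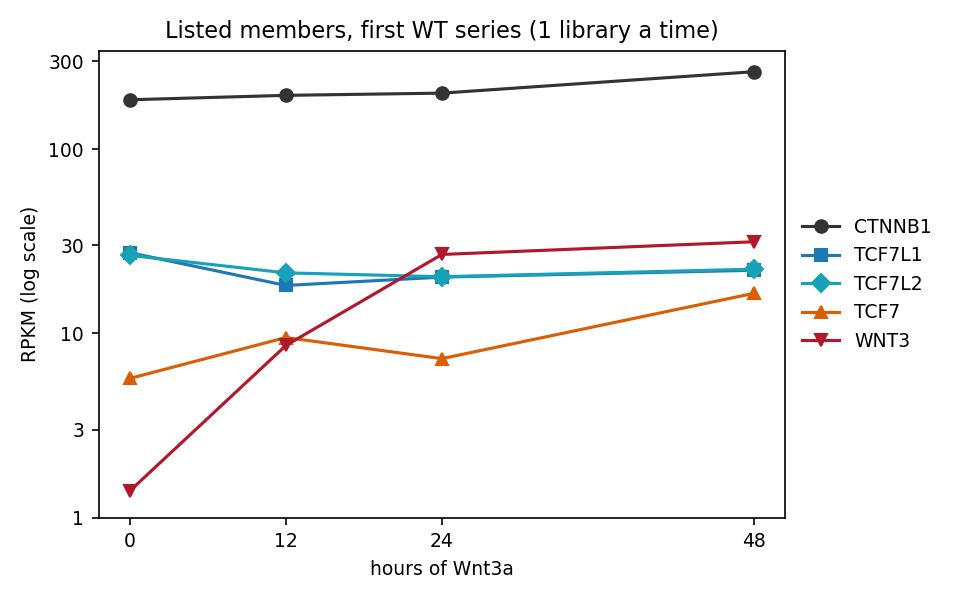
RPKM (log axis) of the 5 listed members at 0, 12, 24 and 48 h of Wnt3a in the first WT series, with 1 library at each point and no error bars. WNT3 goes from 1.4 to 31.4, passing TCF7 and both TCF7L genes, while CTNNB1 stays between 184.9 and 262.5.

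The order of the members changed over time. At 0 h it was CTNNB1, TCF7L1, TCF7L2, TCF7 and WNT3 from highest to lowest. At 24 and 48 h WNT3 stood second, above the 3 TCF factors. TCF7L1 and TCF7L2 were neighbours in level throughout, TCF7L1 minus TCF7L2 being 0.9, −3.1, −0.1 and −0.3 RPKM at 0, 12, 24 and 48 h. The order of that pair could not be resolved from 1 library at a time.

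In the first WT series, with 1 library at each time, the makeup of the listed TCF transcripts differed between times. TCF7 at 48 h was 2.89-fold its 0 h level in this series and 1.54-fold in WT Rep. 2, so the size of the shift was not replicated. TCF7, TCF7L1 and TCF7L2 together gave 59.6, 49, 47.8 and 60.8 RPKM at 0, 12, 24 and 48 h. TCF7 made up 9.56%, 19.4%, 15.3% and 27.1% of that sum at these times. The share of TCF7L1 was 46.0% at 0 h and 36.2% at 48 h, and that of TCF7L2 44.5% and 36.7%. TCF7L1 was 4.81 times TCF7 at 0 h and 1.33 times at 48 h. CTNNB1 RNA was 3.10 times the summed TCF RNA at 0 h and 4.32 times at 48 h. LEF1 is not in these sums because it was not listed.

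**Figure D3:**
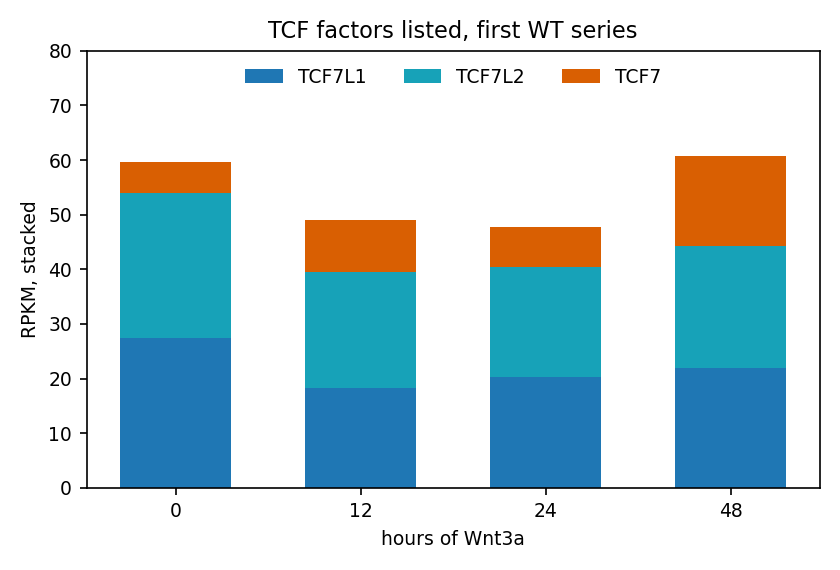
Stacked RPKM of TCF7L1, TCF7L2 and TCF7 at each time of the first WT series, 1 library a bar. The bars are 59.6, 49, 47.8 and 60.8 RPKM high, and the TCF7 segment is largest at 48 h.

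In the second experiment values were deposited as a fraction of the highest of the 4 WT Rep. 2 libraries, so 1 is the WT Rep. 2 maximum of that gene, levels of different genes cannot be compared, and a clone may exceed 1. The study drew up this table from genes that it found to respond to Wnt3a, so the presence of WNT3 and TCF7 in it is no independent evidence that they respond. CTNNB1, TCF7L1 and TCF7L2 have no value in the clones here.

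WNT3 in WT Rep. 2 was 0.08, 0.24, 0.32 and 1.00 at 0, 12, 24 and 48 h. In dZF1 it was 0.05, 0.28, 0.95 and 1.62 at the same times. In dZF2 it was 0.03, 0.38, 1.70 and 1.45. Both clones were below WT Rep. 2 at 0 h and above it at the 3 later times, with the widest gap at 24 h. Both clones were above WT Rep. 2 in 33% of the 497 genes at 0 h and in 36.6%, 51.1% and 44.7% at 12, 24 and 48 h. The highest library was that at 48 h in WT Rep. 2 and dZF1 and that at 24 h in dZF2.

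Against WT Rep. 2 at 24 h, the log2 ratio of WNT3 after adding 0.05 to each value was 1.43 in dZF1 and 2.24 in dZF2, a mean of 1.84 ± 0.57 (SD, n = 2 clones). Both clones were at least 2-fold higher at 24 h in 10.5% of the 497 genes, and the median log2 ratio of all of them was 0.24. The mean WNT3 ratio was exceeded or equalled by 5.03% of the genes. At 48 h the mean was 0.59 ± 0.11 (SD, n = 2 clones), short of 2-fold in both clones, with 6.24% of genes past 2-fold in both. At 12 h it was 0.38 ± 0.27, and at 0 h −0.54 ± 0.23 (each SD, n = 2 clones). With 1 WT series against 2 clones, the smallest p an exact two-sided permutation test could give is 0.333, so none was run. A limma fit over the 497 genes, added after seeing the data, takes its spread from the clones and assumes that the lone WT library varies like them. It treats the libraries of 1 clone at different times as independent. Its p-values do not measure the spread between WT series. In that fit the WNT3 difference had an adjusted p of 0.030 at 24 h (log2 1.84, SE 0.37), where 11.7% of genes were called higher, and of 0.54, 0.60 and 0.36 at the other times from 0 to 48 h.

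The gap at 24 h rested on which WT series it was measured from. From its own 0 h library, without a pseudocount, WNT3 at 24 h was higher by 4.0-fold for WT Rep. 2 and by 19.1-fold for the first WT series, while dZF1 gave 19.0-fold and dZF2 56.7-fold. The first WT series and dZF1 were therefore alike at that time, WT Rep. 2 was lowest and dZF2 highest. Rounding bounds were 17.2 to 21.2 for dZF1 and 48.4 to 68.2 for dZF2. The change from 0 h was also taken on the log2 (value + 0.05) scale. There the mean log2 difference of the clones at 24 h was 2.38 against WT Rep. 2. Against the first WT series it was 0.55, short of 2-fold. Against both WT series together, in a limma fit with each series as a block, it was 1.46 (SE 0.59, adjusted p = 0.997, unadjusted p = 0.033). In that fit no gene of the 497 was called at 24 h, and 17 had an unadjusted p below 0.05. At 48 h the first WT series stood at 22.4 times its 0 h level and WT Rep. 2 at 12.5 times, below dZF1 at 32.4 and dZF2 at 48.3. At 12 h they were 6.14, 3.0, 5.6 and 12.7 in the same order. The change from 0 h was likewise set against WT Rep. 2 on the log2 (value + 0.05) scale. The mean difference of the clones was then 0.92 at 12 h and 1.13, past 2-fold, at 48 h.

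The 2 WT series differed in WNT3 by 1.83 at 24 h on the log2 scale of change from 0 h, against a median difference of 0.84 over the 497 genes. At the earlier and the later time the WT series differed by 0.72 and 0.53. The 2 clones differed from each other by 0.70, 1.13 and 0.17 in WNT3 at the 3 times, with medians over the genes of 0.24, 0.43 and 0.28.

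At 24 h all 4 mesendoderm markers stood in the same order of series as WNT3 in the mutant table. They did not follow WNT3 at every time. From 24 to 48 h in the first WT series WNT3 and EOMES went up. T went from 21.7 to 10.1 RPKM, MIXL1 from 271.1 to 76.4 and GSC from 57.8 to 27.2. T in dZF1 was 0.46 at 0 h and 0 at 12 h. At 24 h the 4 mesendoderm markers ranged from 0.05 to 0.34 in WT Rep. 2, from 0.42 to 0.94 in dZF1 and from 1.8 to 6.16 in dZF2. Each is a fraction of its own WT Rep. 2 maximum. In the first WT series, scaled to its own maximum, they ranged from 0.78 to 1 at 24 h and from 0.28 to 1 at 48 h, whereas all 4 peaked at 48 h in WT Rep. 2. The 4 endoderm markers at 48 h ranged from 2.14 to 2.88 in dZF1 and from 1.98 to 4 in dZF2. At 0 h all 4 mesendoderm markers were at 0 in WT Rep. 2 and 2 of 4 in each clone. SP5 itself at 24 h was 0.09 for WT Rep. 2, against 0.90 for dZF1 and 0.75 for dZF2. WT Rep. 2 was at 0.02 for SP5 at both 0 and 12 h, with its maximum at 48 h. The first WT series was unlike it, with SP5 at 49.8, 90.5 and 135.7 RPKM at 12, 24 and 48 h. The part of cell state, or of timing between the series, in the WNT3 values was not tested.

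TCF7 in WT Rep. 2 was 0.52, 1.00, 0.95 and 0.80 at 0, 12, 24 and 48 h. In dZF1 it was 0.55, 0.77, 0.44 and 0.91. In dZF2 it was 0.47, 0.84, 0.95 and 1.42. The series were close at 0 h and parted later, with dZF1 lowest at 24 h and dZF2 highest at 48 h, and WT Rep. 2 lay inside the range of the clones at 0 h and equal to dZF2 at 24 h.

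For TCF7 the log2 ratio to WT Rep. 2, averaged over both clones, was −0.03 at 0 h and −0.30 at 12 h. It was −0.51 ± 0.73 (SD, n = 2 clones) after 24 h and 0.48 ± 0.43 (SD, n = 2 clones) after 48 h. At 24 h the clones gave −1.03 (dZF1) and 0 (dZF2), so a 2-fold gap was present in 1 clone alone. At 48 h both clones were above WT Rep. 2, by 0.18 and 0.79 on the log2 scale, as were both clones in 44.7% of the 497 genes. From its own 0 h, TCF7 at 48 h was higher by 2.89-fold for the first WT series and by 1.54-fold for WT Rep. 2, while dZF1 gave 1.65-fold and dZF2 3.02-fold. The 48 h values of the clones thus lay on either side of that in the first WT series, and as a change from 0 h the mean of the clones was 0.34 lower than it, on the log2 scale, and 0.51 higher than WT Rep. 2. At 24 h the mean change of the clones differed from that of the first WT series by −0.0037 and from that of WT Rep. 2 by −0.49. In the limma fit within the mutant table the adjusted p of TCF7 was 0.44 at 24 h and 0.55 at 48 h. At no time did both clones differ from WT Rep. 2 by 2-fold in TCF7. Both clones were 2-fold higher in 2.21%, 3.42%, 10.5% and 6.24% of the 497 genes at 0, 12, 24 and 48 h, and 2-fold lower in 2.82%, 3.42%, 2.82% and 3.22%.

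**Figure D4:**
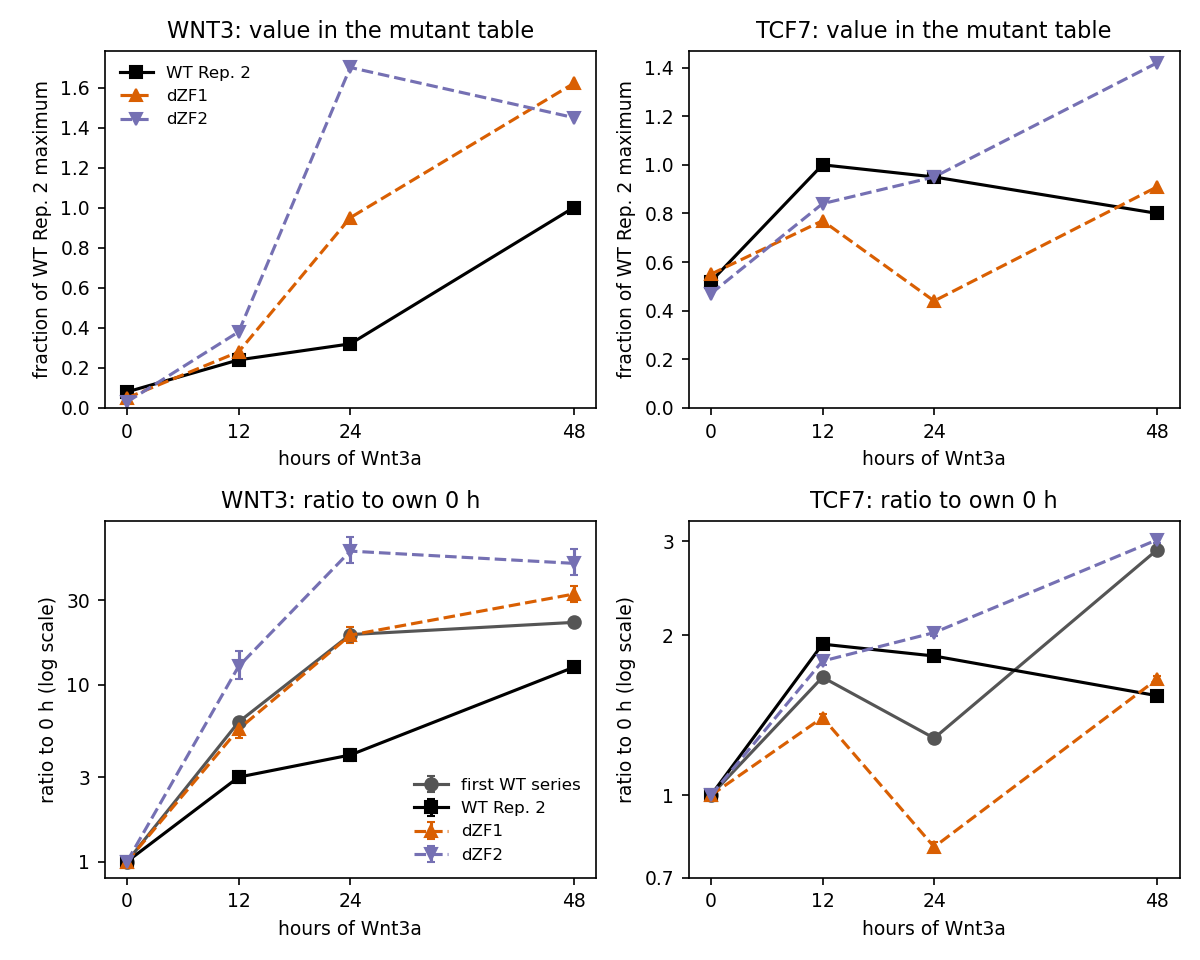
WNT3 (left) and TCF7 (right) by hours of Wnt3a. Top, value as a fraction of the WT Rep. 2 maximum in WT Rep. 2, dZF1 and dZF2; bottom, ratio to the 0 h library of the same series (log axis) with the first WT series added, where bars give the bounds set by rounding. WNT3 in WT Rep. 2 lies below the other 3 series at 12, 24 and 48 h in the lower panel, and the TCF7 lines cross.

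Within WT Rep. 2 WNT3 stood 1.16, 1.51 and 3.01 above 0 h on the log2 (value + 0.05) scale at 12, 24 and 48 h. At least 2-fold higher values were seen in 4.02%, 7.65% and 36.4% of the 497 genes at these times, and at least 2-fold lower values in 1.81%, 2.41% and 6.44%. TCF7 stood 0.88, 0.81 and 0.58 above its 0 h value, under 2-fold throughout, and highest at 12 h. The median of the 497 genes stood 0.65 above 0 h at 48 h in WT Rep. 2, and relative to it TCF7 was 0.07 lower at that time. In the first WT series on the same scale the WNT3 differences were 1.87, 3.34 and 3.54 and those of TCF7 0.67, 0.33 and 1.43. In a limma fit of both WT series over the 497 genes, with the series as a block, WNT3 was 1.52, 2.42 and 3.28 above 0 h (SE 0.47), with adjusted p of 0.97, 0.091 and 0.0038, and 39.8% of genes were called higher at 48 h. TCF7 at 48 h was 1.00 above 0 h (SE 0.41, adjusted p = 0.072). These p-values come from genes that the study chose for their response and are not independent evidence of it. Thus WNT3 was higher than at 0 h at all 3 times in both WT series, and the 2-fold difference of TCF7 at 48 h was seen in 1 WT series and not in the other.

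The genes whose course over the 12 libraries of the mutant table was most like that of WNT3 were NODAL (Pearson r = 0.96), a TGFβ-family ligand of the early embryo, EOMES (r = 0.96), a T-box factor of mesendoderm, and PCDH10 (r = 0.95), a protocadherin. SP5 had r = 0.93 and TCF7 0.58 with WNT3. NODAL at 24 h was 0.32 for WT Rep. 2, against 1.46 for dZF1 and 3.06 for dZF2, the same order of series as WNT3. For TCF7 the most alike were FAM20A (r = 0.88), RASGEF1B (r = 0.76) and COL2A1 (r = 0.73). At 24 h FAM20A was, as TCF7 was, lowest in dZF1, at 0.31 against 0.96 for WT Rep. 2 and 0.98 for dZF2. These values describe log2 (value + 0.05) over 12 libraries from 3 lines, which share times and lines and are not independent samples. The study chose the genes of this table for their response to Wnt3a. The share of them with r as high was not computed, so the likeness is not shown to be particular to the genes named.

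Most other listed genes of the pathway were within 2-fold of their 0 h level at 48 h in the first WT series. So were most of all genes, with 4.86% at least 2-fold higher and 2.95% lower. None of 16 other WNT ligands was listed, so WNT3 was the only WNT ligand with values. Of 3 genes that act on WNT ligands (PORCN and WLS in secretion, and the antagonist NOTUM) only WLS was listed. WLS is the carrier that takes WNT ligands to the cell surface. It had 0.7, 4.6, 13.2 and 21.9 RPKM at 0, 12, 24 and 48 h, a log2 difference of 3.75 and a plain ratio of 31.3. WLS in the mutant table at 24 h was 0.40 for WT Rep. 2, against 1.10 for dZF1 and 1.26 for dZF2, at a time when both clones were above WT Rep. 2 in 51.1% of the genes. At 48 h it was 1.00 for WT Rep. 2, 0.79 for dZF1 and 1.38 for dZF2, so the clones lay on either side.

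Of the 10 destruction complex genes 9 were listed and none was past 2-fold in either direction, with a median log2 difference of 0.09. AXIN2, the scaffold that is itself a WNT target, had 15.5, 24.4, 23.8 and 22 RPKM at 0, 12, 24 and 48 h. Of the 20 nuclear partners of β-catenin and TCF 18 were listed and none was past 2-fold, with a median of 0.18. All 3 Dishevelled genes were listed and none was past 2-fold. In lists of this size a count of none is near the shares of all genes, 4.86% higher and 2.95% lower.

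At the adherens junction, where β-catenin also binds cadherins, 6 of 9 genes were listed. Of these, 1 was past 2-fold, on the higher side, where 4.86% of all genes were. That was CDH2 (N-cadherin), with 16.7, 19.5, 44.2 and 63.3 RPKM at 0, 12, 24 and 48 h. CDH1 (E-cadherin) was 68.6 RPKM at 0 h and 69.2 at 48 h. In the clones CDH2 at 48 h was 1.79 (dZF1) and 1.56 (dZF2) times its WT Rep. 2 maximum.

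Although WNT5A and WNT5B were not listed, 11 of 13 WNT5-class receptors and planar polarity genes were. Among these, 2 were at least 2-fold higher at 48 h and none lower, against 4.86% and 2.95% of all genes, and the list median was −0.04. ROR2, a receptor for WNT5A, had 2.0, 3.8, 14.5 and 22.3 RPKM at 0, 12, 24 and 48 h. VANGL1, a planar polarity membrane protein, had 6.0, 9.7, 20.9 and 28.3 RPKM. ROR1, the sister receptor, went the other way in values, from 35.5 RPKM at 0 h to 22.7 at 48 h, which was short of 2-fold. In the mutant table ROR2 was 0.37, 0.48, 0.43 and 1.00 for WT Rep. 2, 0.24, 0.30, 0.69 and 1.53 for dZF1, and 0.15, 0.23, 1.07 and 1.44 for dZF2. Both clones were thus below WT Rep. 2 at 0 and 12 h and above it later. At 48 h VANGL1 was 1.39 in dZF1 and 1.31 in dZF2, and PTK7, a receptor of the same list, 1.08 and 0.88, beside 1.00 for WT Rep. 2 in each. At that time both clones were above WT Rep. 2 in 44.7% of the genes.

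**Figure D5:**
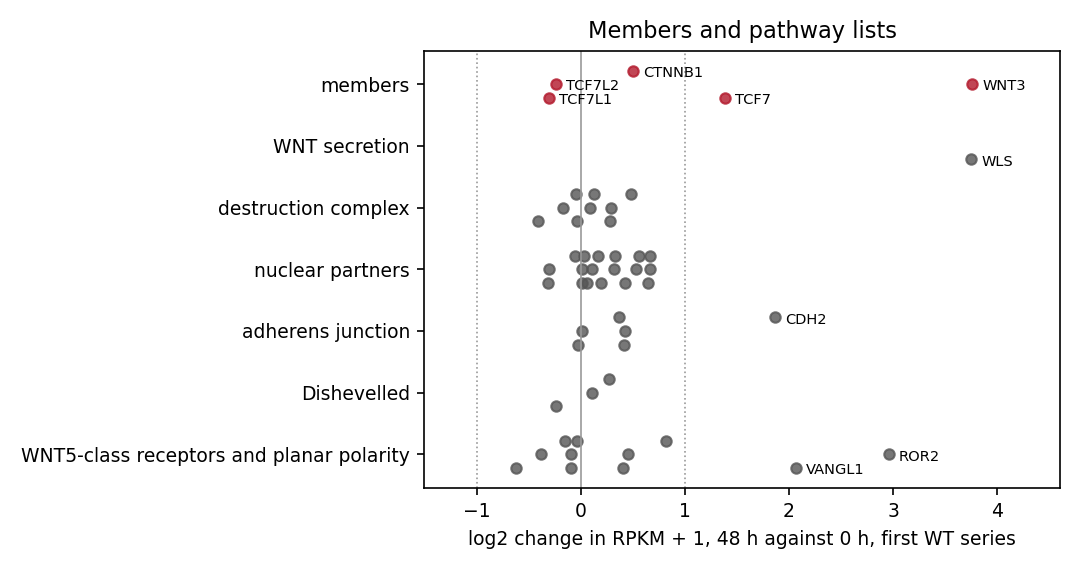
Log2 difference in RPKM + 1 between 48 h and 0 h of the first WT series, 1 point a gene, for the members (red) and the pathway lists (grey), with 2-fold marked by dotted lines. WNT3, WLS, ROR2, VANGL1, CDH2 and TCF7 are the points past 2-fold, all to the higher side.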

How the data were processed

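Ribosomal RNA was depleted and directional RNA-Seq libraries were made from total RNA. The authors aligned reads to hg19 (GRCh37) with TopHat and obtained RPKM per gene with Cuffdiff. Per the labels, Bowtie 0.12.7, SAMtools 0.1.12a and MACS 1.4.2 were used, and the gene annotation behind the RPKM values is not given in the sources used here. The authors deposited RPKM to 1 decimal for the first WT series, and each gene as a fraction of its own maximum. For WT Rep. 2, dZF1 and dZF2 the authors deposited the ratio of each RPKM to the WT Rep. 2 maximum, to 2 decimals. The deposited peak lists give a tag count, a score, a fold enrichment and a false discovery rate in percent, from 1 ChIP library against 1 control.

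Samples were grouped by their labels, and the number of columns left unused for want of a sample is 0. Read depth cannot be recovered from rounded RPKM. Differences were computed on log2 (RPKM + 1) or log2 (fraction + 0.05) with Python 3.11.15, numpy 2.4.6 and pandas 2.3.3, and called at 2-fold, with the share of all genes past 2-fold as background. Added after seeing the data, limma 3.58.1 in R 4.3.3 was fitted to log2 (value + 0.05) of the 497 genes of the mutant table, with Benjamini-Hochberg adjustment over all of them, for the clones against WT Rep. 2 and, with each series as a replicate block, for changes from 0 h over both WT series. Genes outside that table have 1 library at each time and no test. A summit was counted for a gene within 100 kb of the start of its record or inside it, in GENCODE gene models on GRCh37. Sequences were read from GRCh37, and promoters from RefSeq (GRCh38.p14).

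The members and lists were chosen with earlier results of these data known. The 8 members and SP5 are named throughout. From each pathway list the genes past 2-fold at 48 h are named, at most 4 a list, and for each member in the mutant table the 3 genes with the highest Pearson r. AXIN2, CDH1, ROR1 and PTK7 were named in addition, after their values were seen. Alternatives were other pseudocounts, centring on the median of all genes, leaving out a clone, another WT series, other distances, a stricter peak threshold and other motif windows.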

Additional observations from a re-analysis of the deposited data

How the results depend on the processing

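The member differences in the first WT series kept their direction and their side of 2-fold in all 45 combinations of member, time and setting (pseudocounts of 0.1 and 5 RPKM, and centring). The tables of WT replicates 1 and 2 were scaled separately for each gene. A replicate block takes this scaling out only in part, because a constant was added to the scaled values before the log. That constant weighs most on low values. WNT3 before Wnt3a was such a value, at 0.04 in the first WT series and 0.08 in WT Rep. 2. In the blocked limma fit, added after seeing the data, WNT3 stayed past 2-fold at every time and TCF7 at 48 h was 1.00, then past 2-fold.

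For the WNT3 ratio of the clones to WT Rep. 2, the log2 value at 0 h was −0.88 with a pseudocount of 0.01 and −0.22 with 0.2. As a change from 0 h it was 0.92, 2.38 and 1.13 at 12, 24 and 48 h, the last then past 2-fold. Changing both choices, to the change from 0 h and to the first WT series, gave 0.55 at 24 h. Against both WT series with the replicate block it was 1.46 at 24 h and 0.87 at 48 h. For TCF7 the change from 0 h against the first WT series gave −0.056 at 12 h, −0.0037 at 24 h and −0.34 at 48 h, and against both with the replicate block −0.16 at 12 h. Centring put TCF7 in WT Rep. 2 at 48 h at −0.07, below its 0 h value. Leaving out either clone moved the WNT3 ratio between −0.70 and −0.38 at 0 h, 0.19 and 0.57 at 12 h, 1.43 and 2.24 at 24 h, and 0.51 and 0.67 at 48 h. The TCF7 ratio then lay between −0.13 and 0.07 at 0 h, −0.36 and −0.24 at 12 h, −1.03 and 0 at 24 h, and 0.18 and 0.79 at 48 h. The value of 0 is that of dZF2 alone. With a pseudocount of 0.2, chosen after seeing the data, WNT3 in WT Rep. 2 stood 0.65 above 0 h at 12 h and 0.89 at 24 h, both then under 2-fold, as adding a larger constant shrinks low values.

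At a false discovery rate of at most 5% the number of members with an SP5 peak was 0 instead of 3. Within 10 kb of the start or inside the gene it was 2. These were TCF7L1, 1809 bases from the start, and WNT3, 60581 bases from it but inside the gene. CTTTGNT was found at 1 member peak within 250 bases of the summit. The cause of the other differences was not tested. Values near 0 h in the mutant table have few rounding steps, which limits WNT3 ratios to 0 h most.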
